A study of Mus musculus with 4 samples.

Results

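The 36 mouse genes described here are targets of the hypoxia-inducible factors (HIF), the enzymes of glycolysis and 3 carbonic anhydrases. They were chosen by name: every non-control spot whose gene name, or an older symbol resolved through its accession, is on the list belongs to them. All 36 were on the array, among 27670 named genes, with 63 probes at 90 spots. By role they are 17 glycolytic enzymes, 16 other HIF targets, the 2 HIF alpha subunits Hif1a and Epas1, and Car2. Each of the 16 had a probe that passed the background filter. Car2 was set apart because it is no established HIF target. They were measured in 2 sub-lines of 4T1, a transplantable mouse mammary carcinoma line, with 2 arrays of 4T1-A and 2 arrays of 4T1-S. Both sub-lines derive from the parental line 4T1, and the series title calls 4T1-S strongly immunogenic. The labels give no further allele, no treatment, no oxygen level and no clonal origin for either sub-line.

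HIF is a transcription factor made of an alpha subunit and a constant beta subunit. In oxygen, the prolyl hydroxylases Egln1 and Egln3 mark the alpha subunit for degradation, and in hypoxia it accumulates and binds a short DNA element near its target genes. HIF activity is controlled largely through the stability of the alpha protein, so the mRNA levels of Hif1a and Epas1 do not report it. Textbook targets raise glucose uptake and glycolysis, turn pyruvate away from mitochondria, export acid and promote vessel growth. Car9, a membrane carbonic anhydrase with its active site outside the cell, is widely used as a marker of tumour hypoxia.

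Each level below is a spot's processed intensity divided by the 75th percentile of the non-control spots on its array. Each difference is the mean log2 level of the 4T1-S arrays minus that of the 4T1-A arrays, given with its standard error (SE) from limma, a linear model fitted across all genes, on 2 arrays per sub-line. A gene is called changed at a Benjamini-Hochberg adjusted p under 0.05 over the 16172 genes tested. A probe's brightness depends on its own binding, so levels of different probes are not compared. Whether replicate arrays hold RNA of separate cultures is not stated in the labels. The p-values therefore weigh a difference against the spread of these arrays alone, and that spread may be technical. All 4 arrays shared 1 slide and 1 scan, with each sub-line at neighbouring positions, so slide position and sub-line cannot be told apart. Each array held 43379 non-control spots, of which 54.9% to 59.2% were well above background. In bulk RNA, fewer expressing cells and less RNA per cell cannot be told apart.

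The mammary epithelial identity of both sub-lines was checked first. All 8 epithelial markers listed (Epcam, Krt8, Krt18, Krt19, Krt14, Krt5, Cdh1 and Cldn4) were well above background on every array. Their summed level was 246 and 257 in 4T1-A, against 228 and 192 in 4T1-S. Krt8 and Krt18 made up most of these sums, and neither was called. Of the 8, 5 (Epcam, Krt19, Krt14, Cdh1 and Cldn4) were called lower in 4T1-S, beside 3.01% of all genes tested. Their log2 differences ran from -3.78 (Epcam) to -1.11 (Cdh1), while Krt5 was at 0.52 and did not pass. Of 8 leukocyte markers, 6 were above background on at least 1 array, with sums of 0.506 to 0.525 in 4T1-A, against 0.629 to 0.725 in 4T1-S, and none was called. The pan-leukocyte gene Ptprc was not well above background on either 4T1-A array. Of 5 endothelial markers, 1 was above background on any array, with sums of 0.113 to 0.224. Of 6 fibroblast markers, 4 were, with sums of 0.647 and 0.854 in 4T1-A, against 1.25 and 1.16 in 4T1-S, and none was called. Pdgfra was the largest part of these sums, at 0.324 and 0.529 in 4T1-A, against 0.780 and 0.758 in 4T1-S. Dim genes were shifted upward in general: in the dimmest of 4 equal bins of tested genes by brightness, the median difference was 0.46. The part of these markers in the differences below was not tested.

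Of the 36 genes, 35 were tested and 34 were well above background on all 4 arrays. Of the 35, 6 were called changed, or 17.1% beside 6.96% of all genes tested, 3 in each direction. Vegfa, Pdk1 and Eno2 were higher in 4T1-S and Car9, Adm and Aldoc were lower, while the other 29 did not pass the test. The 3 higher genes are 8.57% of the 35, beside 3.95% of all genes tested, and the 3 lower genes are 8.57%, beside 3.01%. At those rates over all genes, 35 genes would give 1.38 higher and 1.05 lower, so each count exceeds that background by under 2 genes. Call rates differ by brightness, however. Of the 35, 16 lay in the brightest of the 4 bins, where 1.19% of genes were called higher and 0.89% lower. In the third bin lay 14 (2.35% and 2.67%), in the second 4 (4.58% and 5.44%) and in the dimmest 1 (7.69% and 3.04%). Rates for genes as bright as most members are thus lower than those of all genes. Every 4T1-S array used lay above both 4T1-A arrays for 15 of the 35 (42.9%), beside 40.6% of all genes. The 4T1-S arrays lay below for 6 (17.1%), beside 18.5%. Pgam1 (above) and Tpi1 (below) are counted here on 1 4T1-S array, as the other was flagged. Both shares are close to those of all genes. The median difference was 0.12, against 0.13 over all genes tested, 0.03 in the third bin and 0.05 in the brightest.

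**Figure D1:**
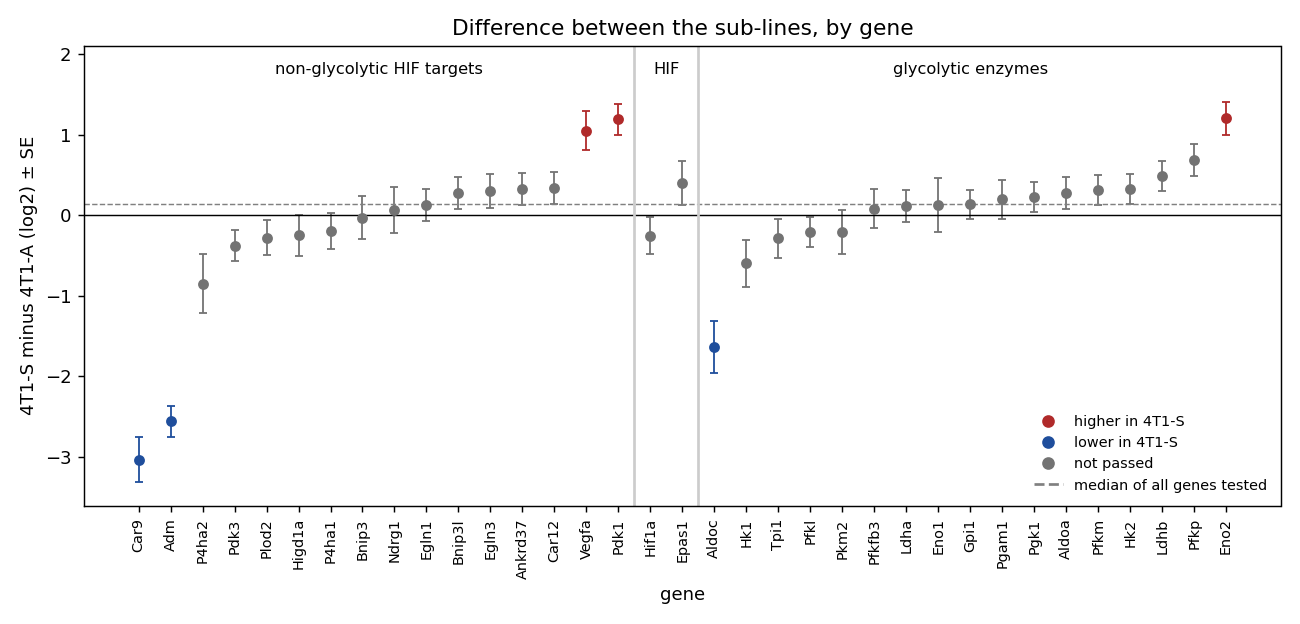
Difference between the sub-lines for the 35 tested genes, as the log2 level in 4T1-S minus that in 4T1-A with its SE. Genes are grouped as other HIF targets, HIF alpha subunits and glycolytic enzymes, and ordered by difference within each group. Car9 lies at -3.03 and Adm at -2.56, while Pdk1 and Eno2 lie at 1.19 and 1.20 and most glycolytic enzymes lie within 0.5 of 0.

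The DNA element that HIF binds has the core letters ACGTG or GCGTG, and the 250 bases before the transcription start were read for the members in the RefSeq promoter table (GRCm38.p6). This table held 31 of the 36 genes; Bnip3l, Car2, Epas1, Ndrg1 and Plod2 were not matched. The sequences of Car9, Adm and Aldoc (lower in 4T1-S), of Pdk1 (higher), and of Ldha and Pgk1 (not called) are shown to compare the letters around the element among genes that moved differently. Each runs 5′ to 3′ toward the start site, and capitals mark ACGTG or GCGTG, or their reverse complements CACGT and CACGC where the core lies on the other strand. Where the letters CACGTG occur, the core is counted on both strands.
Car9: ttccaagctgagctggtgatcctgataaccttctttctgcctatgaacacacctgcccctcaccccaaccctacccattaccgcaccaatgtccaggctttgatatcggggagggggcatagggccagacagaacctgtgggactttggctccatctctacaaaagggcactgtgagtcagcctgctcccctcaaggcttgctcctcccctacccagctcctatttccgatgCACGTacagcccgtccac
Adm: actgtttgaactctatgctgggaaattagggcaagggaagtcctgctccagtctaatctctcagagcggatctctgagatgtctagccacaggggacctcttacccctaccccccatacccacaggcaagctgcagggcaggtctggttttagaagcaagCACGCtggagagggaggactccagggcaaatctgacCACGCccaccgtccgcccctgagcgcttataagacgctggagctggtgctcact
Aldoc: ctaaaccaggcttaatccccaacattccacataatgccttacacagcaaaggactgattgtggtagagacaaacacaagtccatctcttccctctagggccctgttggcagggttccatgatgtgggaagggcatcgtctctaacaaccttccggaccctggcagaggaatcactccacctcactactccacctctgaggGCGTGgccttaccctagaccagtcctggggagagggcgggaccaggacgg
Pdk1: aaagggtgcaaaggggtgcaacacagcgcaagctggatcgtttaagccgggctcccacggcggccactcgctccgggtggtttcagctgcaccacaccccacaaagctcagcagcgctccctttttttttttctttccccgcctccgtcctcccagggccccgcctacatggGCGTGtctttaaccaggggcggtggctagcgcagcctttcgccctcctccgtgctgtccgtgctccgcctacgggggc
Ldha: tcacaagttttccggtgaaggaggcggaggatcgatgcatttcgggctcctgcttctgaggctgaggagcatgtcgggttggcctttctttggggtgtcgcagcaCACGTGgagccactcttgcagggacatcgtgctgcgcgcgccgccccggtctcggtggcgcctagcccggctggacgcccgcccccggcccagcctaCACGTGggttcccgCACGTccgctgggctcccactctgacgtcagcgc
Pgk1: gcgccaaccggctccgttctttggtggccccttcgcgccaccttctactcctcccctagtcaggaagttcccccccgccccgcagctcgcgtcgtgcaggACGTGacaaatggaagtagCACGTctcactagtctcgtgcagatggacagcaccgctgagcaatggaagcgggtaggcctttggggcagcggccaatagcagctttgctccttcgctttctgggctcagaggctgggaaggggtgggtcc

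Car9 (chr4:43506776-43507025, plus strand) held 1 ACGTG, 18 bases before its start. Adm (chr7:110627407-110627656, plus strand) held 2 GCGTG matches, 90 and 54 bases before its start. Aldoc (chr11:78322823-78323072, plus strand) held 1 GCGTG, 50 bases before its start, and Pdk1 (chr2:71872974-71873223, plus strand) held 1 GCGTG, 78 bases before. Ldha (chr7:46845554-46845803, plus strand) held 5 ACGTG matches between 145 and 34 bases before its start, and Pgk1 (chrX:106186850-106187099, plus strand) held 2, at 150 and 131. For a gene with more than 1 listed start, a promoter with the most matches is shown. The other Pdk1 start had none. The other Aldoc start tied, with 1 GCGTG 39 bases before it, and the other Ldha start had 1 GCGTG 59 bases before it. Of the 2 starts listed for Vegfa, 1 had matches and the other had none, and Eno2 had none. Genes called lower, genes called higher and genes not called thus all included promoters with the core letters.

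Across the list, 27 of the 31 matched genes (87.1%) held ACGTG or GCGTG on either strand in at least 1 of their promoters, beside 41.5% of the 27025 genes in the table. With ACGTG alone it was 18 genes (58.1%), beside 18.5%. Among the glycolytic enzymes 14 of 17 held either core, and among the other matched targets 12 of 13. The members' promoters had a median GC content of 60.4% against 52.4% for all promoters, and the part of GC content in these shares was not tested. A match is a description of the letters and no evidence of binding.

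The carbonic anhydrases hydrate carbon dioxide to bicarbonate and a proton. Car9 had the largest difference of the 35 genes. It was measured at 1.14 and 1.83 times the 75th percentile in 4T1-A and at 0.147 and 0.212 in 4T1-S. Both 4T1-S arrays lay far below both 4T1-A arrays, and the probe was above background on all 4. Car9 fell by 3.03 (SE 0.28) on the log2 scale, which is 8.17-fold, with a limma adjusted p of 8.25e-04. It was called in each of 15 alternative processings, between -3.37 and -2.04, and the smallest of these came with normexp background correction.

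Car12, also a membrane-bound carbonic anhydrase with an outward-facing site, did not follow Car9 on its brightest probe. Its levels were 3.04 and 2.43 in 4T1-A, against 3.38 and 3.49 in 4T1-S. The 4T1-S arrays were the higher pair, but the difference of 0.34 (SE 0.20; limma adjusted p = 0.298) did not pass. A second Car12 probe was near background, with neither 4T1-S array well above it. It gives only a bound, at least 1.19-fold lower in 4T1-S (limma adjusted p = 0.018 in a fit over all probes, which called 4.52% of them). The direction of this bound is opposite to the value of the brightest probe, which did not pass. Car2, the abundant cytosolic enzyme of red cells and other tissues, had no array well above background and was not tested. The 3 erythroid markers on the array had sums of 0.177 to 0.286.

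Of the secreted factors, one was lower and the other higher in 4T1-S. Adm encodes adrenomedullin, a peptide that widens vessels and supports their growth. Its levels were 0.391 and 0.446 in 4T1-A, against 0.0665 and 0.0757 in 4T1-S. The groups were far apart, and only 1 of the 2 4T1-S arrays was well above background. Adm fell by 2.56 (SE 0.19) on the log2 scale, or 5.89-fold, with a limma adjusted p of 2.39e-04. It passed in all 14 alternatives that tested it, but at -1.08 with normexp background correction.

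Vegfa encodes the main growth factor of vessel endothelium. Its levels were 1.61 and 2.25 in 4T1-A, against 3.43 and 4.53 in 4T1-S. Both 4T1-S arrays were above both 4T1-A arrays, by 1.05 (SE 0.24) on the log2 scale, or 2.07-fold (limma adjusted p = 0.0444). This call lies close to the threshold and held in 5 of 15 alternatives, with adjusted p-values of 0.0526 to 0.207 in the other 10. Leaving out 4T1-A replicate 1 gave an adjusted p of 0.119, leaving out 4T1-S replicate 1 gave 0.109, and leaving out 4T1-S replicate 2 gave 0.207. All 3 Vegfa probes gave like differences, from 0.89 to 1.11, and none of them passed in the fit over probes (limma adjusted p of 0.060 to 0.093). The main probe was printed at 10 spots, with a coefficient of variation of 6.35% to 14.4% within an array. The log2 gap between the replicate arrays, 0.48 in 4T1-A, against 0.40 in 4T1-S, was larger than the spread between spots, whose SD was 0.09 to 0.20.

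**Figure D2:**
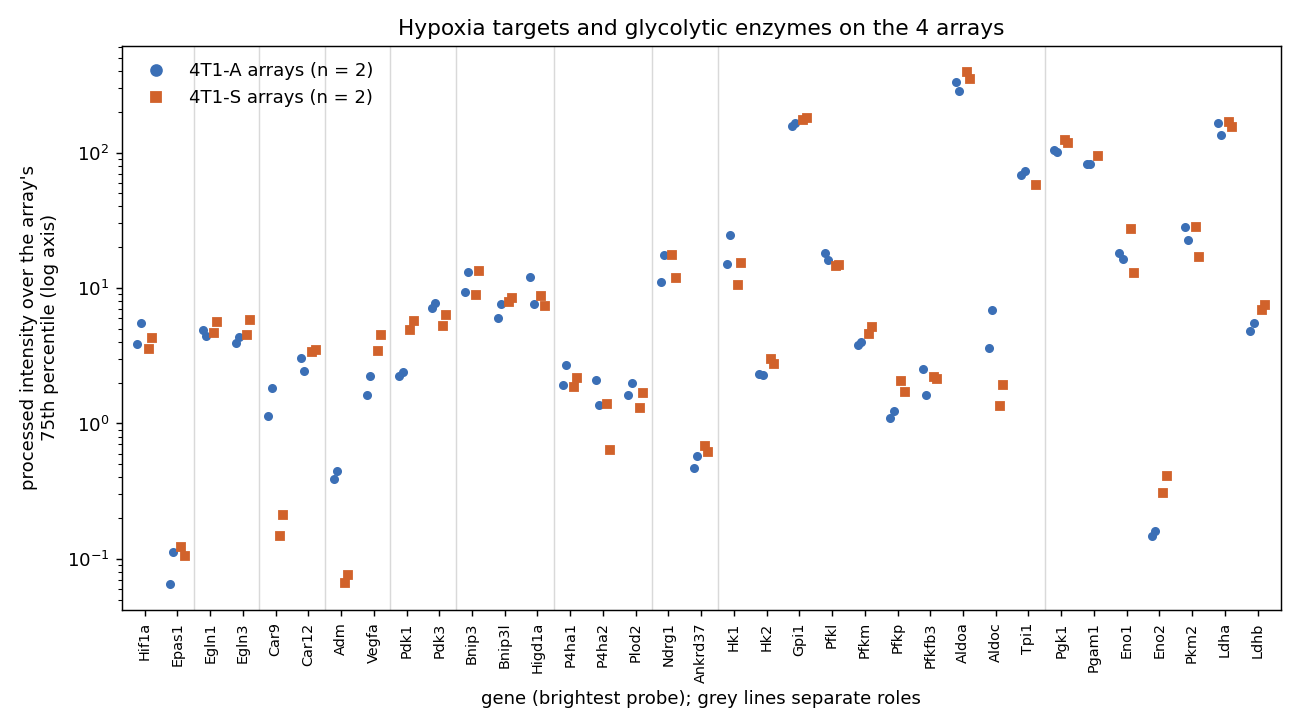
Level of the 35 tested genes on each of the 4 arrays, ordered by role, as intensity over the array's 75th percentile on a log axis with 1 point per array (Tpi1 and Pgam1 have 3). Car9, Adm and Aldoc sit lower on both 4T1-S arrays, Vegfa, Pdk1 and Eno2 sit higher on both, and levels of different genes come from different probes and are not comparable.

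The pyruvate dehydrogenase kinases phosphorylate pyruvate dehydrogenase and so keep pyruvate out of the citric acid cycle. Pdk1, the best known HIF target among them, was measured at 2.22 and 2.42 in 4T1-A and at 4.89 and 5.74 in 4T1-S. The pairs did not overlap, and replicates lay close together. Pdk1 was higher by 1.19 (SE 0.19), or 2.29-fold (limma adjusted p = 0.0118). Without 4T1-S replicate 1 its adjusted p was 0.0598, and without 4T1-S replicate 2 it was 0.116, and with no background filter, which adds dim genes to the test, it was 0.0743. The value also rests on 1 of 2 probes. The called probe was designed on a cDNA, and the second, on the RefSeq transcript, gave 0.03 (SE 0.31). With the mean of both probes, Pdk1 was at 0.61 and did not pass (limma adjusted p = 0.135). Pdk3, which had levels of 7.17 and 7.80 in 4T1-A, against 5.24 and 6.33 in 4T1-S, differed by -0.38 (SE 0.20; limma adjusted p = 0.246). Its second probe gave 0.09.

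The glycolytic enzymes had a median difference close to that of all genes. Of 17, 1 was called higher (Eno2), 1 lower (Aldoc) and 15 did not pass, so 11.8% were called, beside 6.96% of all genes. Their median difference was 0.13, equal to the 0.13 of all genes tested, and 12 of the 17 were above 0, beside 62.9% of all genes. By brightness, 11 of the 17 lay in the brightest of the 4 bins and 5 in the third. All genes in those bins had medians of 0.05 and 0.03, and lower call rates, given above. The group's median was thus above those of genes of like brightness, and the part of brightness in this was not tested. Of the 17, 13 lay within 0.5 of 0 on the log2 scale, beside 71.6% of all genes. The 15 that did not pass ranged from -0.60 to 0.69, and no bound of their 95% intervals was farther from 0 than 1.27. Scaling to each array's median lowers every difference measured on all 4 arrays by the same amount. The all-gene median and the group's median were then both at -0.16. Under normalizations that do not move all genes alike, the group's median minus that of all genes was 0.022 with quantile normalization, 0.062 with cyclic loess and -0.030 with normexp background correction. The group's direction therefore has no fixed sign, either against 0 or against all genes.

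Both called glycolytic genes are isoforms associated with the nervous system. Aldoc encodes the aldolase of brain, and Aldoa the ubiquitous one. Aldoc was measured at 3.64 and 6.93 in 4T1-A and at 1.36 and 1.94 in 4T1-S, with no overlap but a wide gap between the 4T1-A arrays. It fell by 1.63 (SE 0.32) on the log2 scale, or 3.10-fold (limma adjusted p = 0.0281). The second Aldoc probe also had a lower value, -0.88 (limma adjusted p = 0.051 over probes). Leaving out 4T1-S replicate 1 gave an adjusted p of 0.164 for Aldoc, and leaving out 4T1-S replicate 2 gave 0.103. It was 0.0744 with normexp and 0.124 with no background filter. Aldoa, at 332 and 283 in 4T1-A, against 396 and 349 in 4T1-S, differed by 0.28 (SE 0.19) and did not pass.

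Eno2 encodes the enolase of neurons, and Eno1 the enolase of most tissues. Eno2 was measured at 0.148 and 0.162 in 4T1-A and at 0.309 and 0.408 in 4T1-S. The 4T1-S pair lay clear of the 4T1-A pair, by 1.20 (SE 0.21), or 2.30-fold (limma adjusted p = 0.0167). Its second probe gave 1.50, and both Eno2 probes were called higher in the fit over probes, which called 7 of the members' 57 tested probes, beside 4.52% of all probes. Without 4T1-S replicate 2 the adjusted p of Eno2 was 0.129, with scaling to the median 0.0624 and with no background filter 0.0913. Eno2 is a dim probe, in the second of 4 equal bins of genes by brightness, where the median difference was 0.09. Eno1 levels were 18.2 and 16.3 in 4T1-A, against 27.4 and 12.8 in 4T1-S, so the 4T1-S arrays lay on both sides of the 4T1-A pair.

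**Figure D3:**
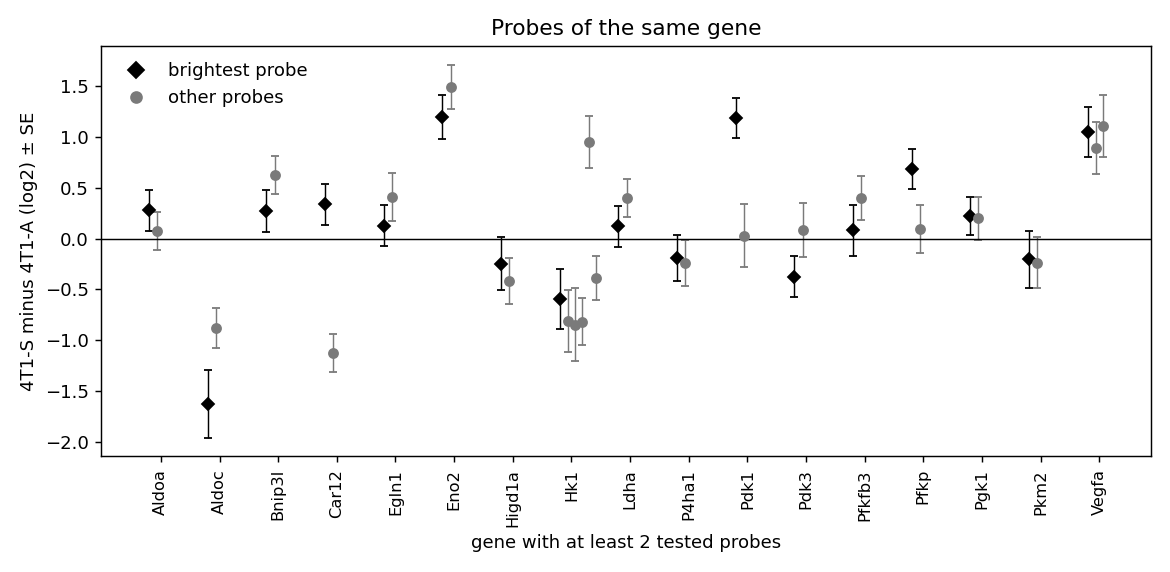
Log2 difference with its SE for every tested probe of the 17 genes that had at least 2, with the brightest probe as a diamond and the others as circles. The probes of Vegfa, Eno2 and Aldoc lie on the same side of 0, those of Hk1 and Pdk3 do not, and the lower Car12 point was not well above background in 4T1-S and stands for a bound only.

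The first steps of glycolysis trap and phosphorylate glucose. Hk1, the housekeeping hexokinase, was measured at 15.0 and 24.6 in 4T1-A and at 10.5 and 15.3 in 4T1-S, with overlapping arrays and a difference of -0.60 (SE 0.29; limma adjusted p = 0.220). With 1 array left out, Hk1 ranged from -0.95 to -0.24, and it was lowest without 4T1-A replicate 1. It was called lower with the replicate number as a block (limma adjusted p = 0.0346). Its 6 probes ranged from -0.85 to 0.95, 5 of them below 0, and the single positive one is dim. Hk2, the inducible hexokinase and the more usual HIF target, differed by 0.32 (SE 0.18). Gpi1, which isomerises glucose 6-phosphate, was measured at 157 and 166 in 4T1-A, against 173 and 181 in 4T1-S, a difference of 0.13 with a 95% interval of -0.29 to 0.56.

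The phosphofructokinase isoforms carry out the committed step, and none of them passed the test. Pfkp, the platelet isoform, was measured at 1.10 and 1.23 in 4T1-A, against 2.05 and 1.72 in 4T1-S. Its arrays did not overlap, and at 0.69 (SE 0.20; limma adjusted p = 0.0742) it was the highest of the 15 glycolytic genes that did not pass. Its second probe gave 0.09. Pfkm, the muscle isoform, was at 0.31, Pfkl, the liver isoform, at -0.21, and Pfkfb3, which makes the activator fructose 2,6-bisphosphate, at 0.08. None of these 3 passed.

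None of the enzymes from the pathway's middle and end named next passed the test. Pgk1, the first enzyme to yield ATP, was measured at 105 and 101 in 4T1-A, against 123 and 118 in 4T1-S. The 4T1-S arrays were both higher, by 0.23 (SE 0.18), with a 95% interval of -0.19 to 0.65. Ldha, which turns pyruvate to lactate, was measured at 164 and 134 in 4T1-A, against 168 and 154 in 4T1-S. Its difference was 0.12 (SE 0.20), with overlapping arrays. Ldhb, the subunit common in heart, was measured at 4.81 and 5.48 in 4T1-A, against 6.88 and 7.53 in 4T1-S, and its 0.49 (SE 0.19; limma adjusted p = 0.142) did not pass although the arrays did not overlap and the 95% interval ran from 0.05 to 0.93. Pkm2 (current symbol Pkm), the pyruvate kinase gene, was at -0.20 (SE 0.27). Tpi1 and Pgam1, which interconvert triose phosphates and phosphoglycerates, each had 1 4T1-S spot with an outlier flag, left out of the fit. On the 3 remaining arrays Tpi1 differed by -0.29 (SE 0.24) and Pgam1 by 0.20 (SE 0.24). Many glycolytic genes have processed pseudogenes, and whether a probe also binds their transcripts was not tested.

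The 16 other HIF targets had a median difference of 0.02, below the 0.13 of the glycolytic enzymes and of all genes. By brightness, 3 of the 16 lay in the second of the 4 bins, 8 in the third and 5 in the brightest. All genes in those bins had medians of 0.09, 0.03 and 0.05, so 0.02 was close to the medians for most of this brightness range. Of these 16, 2 were called higher (Vegfa and Pdk1), 2 lower (Car9 and Adm) and 12 did not pass, so 25% were called, beside 6.96% of all genes. Their differences had a wider scatter by the SD, with an SD of 1.12 over genes, against 0.60 for the glycolytic enzymes and 0.60 for all genes. That SD includes Car9 and Adm. The interquartile ranges lay close together, from -0.30 to 0.31 for the other targets, from -0.20 to 0.31 for the glycolytic enzymes and from -0.15 to 0.43 for all genes. The 12 that did not pass ranged from -0.85 to 0.34. Taken within each array, as the median deviation of the other targets minus that of the glycolytic enzymes, the values were -0.02 and 0.22 in 4T1-A, against -0.15 and 0.04 in 4T1-S. The sub-lines overlapped on this measure, so the medians of the groups were not separable on these arrays. The groups also differ in brightness: the median level was 3.98 on the log2 scale for the glycolytic probes and 1.71 for the others. The part of brightness in the scatter and in the medians was not tested.

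**Figure D4:**
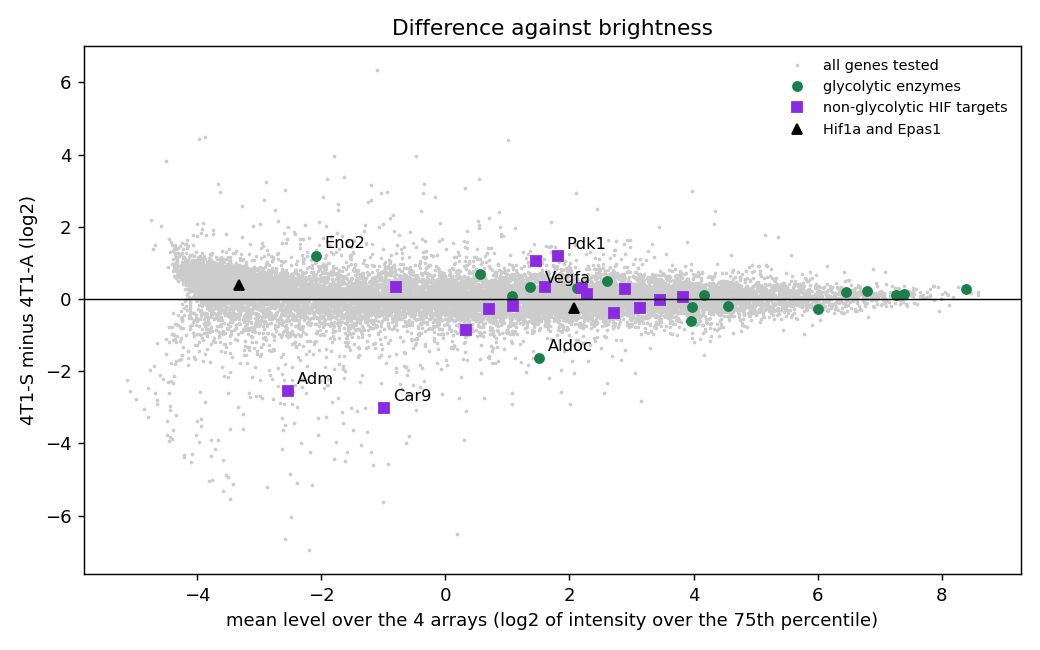
Log2 difference of every tested gene (grey) against its mean level over the 4 arrays, with the glycolytic enzymes as circles, other HIF targets as squares and the HIF alpha subunits as triangles. Grey points scatter more and lie higher at the dim end, the bright glycolytic enzymes lie near 0, and Car9 and Adm lie at -3.03 and -2.56.

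The HIF alpha subunits themselves did not pass the test. Hif1a was measured at 3.87 and 5.49 in 4T1-A and at 3.52 and 4.26 in 4T1-S. Those arrays overlapped, and the difference of -0.25 (SE 0.23; limma adjusted p = 0.513) had a 95% interval of -0.79 to 0.29. Epas1, the gene of HIF-2 alpha, was measured at 0.0655 and 0.113 in 4T1-A and at 0.123 and 0.105 in 4T1-S, a difference of 0.40 (SE 0.28; limma adjusted p = 0.376). That probe was designed on a cDNA. The second Epas1 probe, on the RefSeq transcript, was well above background on no array, with levels of 0.0123 to 0.0147, and was not tested. Epas1 was the single member in the dimmest of those 4 bins, where the median difference was 0.46.

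The prolyl hydroxylases are both oxygen sensors and, for Egln3 above all, HIF targets. Egln1 was measured at 4.92 and 4.45 in 4T1-A, against 4.64 and 5.62 in 4T1-S, with overlapping arrays and a difference of 0.13 (SE 0.20). Egln3 was measured at 3.96 and 4.38 in 4T1-A, against 4.52 and 5.83 in 4T1-S. The 4T1-S arrays were both higher, but 0.30 (SE 0.21) did not pass. Neither gene followed Car9 or Adm.

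Mitochondrial proteins and the other targets were also without a call. Bnip3, which directs mitochondria to autophagy, was measured at 9.41 and 13.1 in 4T1-A, against 8.86 and 13.3 in 4T1-S. The replicates differed far more than the sub-lines, by -0.03 (SE 0.26). Its relative Bnip3l was at 0.27 and Higd1a, a small mitochondrial inner membrane protein, at -0.25. Ndrg1, a stress-responsive gene, was measured at 11.0 and 17.5 in 4T1-A, against 17.6 and 11.9 in 4T1-S, again with replicates farther apart than the sub-lines (0.06, SE 0.29). Ankrd37, a small ankyrin repeat gene, was at 0.32.

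The collagen hydroxylases modify collagen for folding and cross-linking, and all 3 had values below 0 without passing. P4ha1, a prolyl 4-hydroxylase subunit, was measured at 1.93 and 2.69 in 4T1-A, against 1.85 and 2.16 in 4T1-S. Its arrays overlapped, at -0.19 (SE 0.22). P4ha2, the second such subunit, was measured at 2.08 and 1.38 in 4T1-A, against 1.39 and 0.638 in 4T1-S. With 1 low 4T1-S array, its difference of -0.85 (SE 0.37; limma adjusted p = 0.180) was the lowest among the genes that did not pass. With 1 array left out it ranged from -1.41 to -0.28. It was at -1.14 without 4T1-A replicate 2, and it was called with the replicate number as a block (limma adjusted p = 0.0202). Plod2, the lysyl hydroxylase of collagen telopeptides, was at -0.28.

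**Figure D5:**
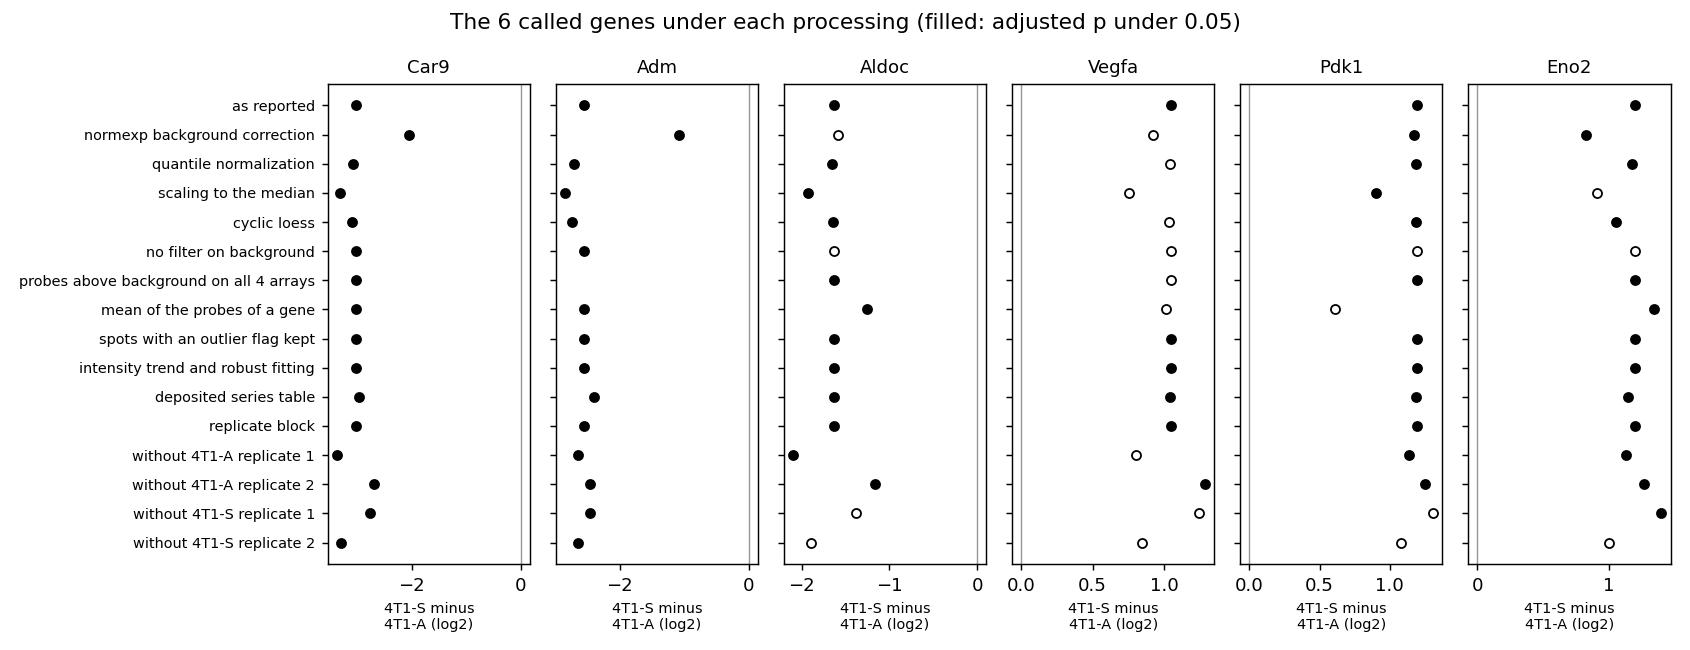
Log2 difference of the 6 called genes as reported and under each alternative processing, filled where the limma adjusted p was under 0.05, with a scale of its own for each gene. Car9 and Adm are filled in every alternative that tested them, Vegfa is filled in 5 of 15, and Adm has no point where all 4 arrays had to be above background.

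Beyond the list, 71 further genes of the same pathways were looked up: branches of glycolysis, oxygen sensing, pyruvate dehydrogenase, further HIF targets and other carbonic anhydrases. Of the 69 on the array, 53 were tested: 2 were called higher, beside 3.95% of all genes, 2 lower, beside 3.01%, and 49 did not pass. Their median difference was 0.10, beside 0.13 for all genes, so the counts and the median were near the background. Stc2, a secreted glycoprotein hormone and HIF target, was measured at 1.17 and 1.15 in 4T1-A and at 0.284 and 0.292 in 4T1-S. Replicates nearly coincided, and Stc2 fell by 2.01 (SE 0.18) on the log2 scale (limma adjusted p = 6.48e-04). Ldhd, the D-lactate dehydrogenase, was not well above background on either 4T1-S array and is given as at least 1.73-fold lower (limma adjusted p = 0.0159). The carbonic anhydrases Car3 and Car5a were higher by 0.96 (SE 0.20; limma adjusted p = 0.0353) and 0.92 (SE 0.20; limma adjusted p = 0.0395), both on dim probes above background on 1 of 2 4T1-A arrays. Both lay in the dimmest of the 4 equal brightness bins. There the median difference was 0.46 and 7.69% of genes were called higher. Slc2a1, the main glucose transporter under HIF control, was at 0.10 (SE 0.20).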

How the data were processed

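The deposited spot intensity values came from Agilent Feature Extraction 9.1, per the submitters' processing notes and the headers, after spatial and multiplicative detrending, with the software's surrogate values allowed for dim spots. The deposited series table holds the same intensity as a ratio to each array's 75th percentile: its values lay within 0.001 of that ratio for 100% of spots on 3 arrays and for 79.7% on 4T1-A replicate 1. RNA was labelled with Cy3 (1 colour). From the scanner values, log2 intensity minus the array's 75th percentile was computed without control spots or outlier-flagged spots, and spots of a probe were averaged. Each gene took its brightest probe (41174 probes, 27670 genes; symbols updated by accession) and was tested where both arrays of a sub-line (either one) were well above background. limma 3.58.1 (R 4.3.3) gave 2-sided moderated tests with Benjamini-Hochberg adjustment. A bound ("at least") sets the measured group against each array's lowest signal well above background. The number of arrays limits the precision.

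The members, lists and tests were chosen with earlier results of these data known. Named with values on every array are the members past the threshold, Hif1a, Epas1 and the brightest member of each other role; further members were named for completeness. Of other pathway genes, those past the threshold are named, and Slc2a1 was added as background. Processing alternatives covered background correction, scaling, filter, probe choice, moderation, the replicate number as a block and each array left out. Whole-table counts differ between scalings. Gapdh and Pdp2 were not analysed here. Self-checks on simulated data were run for the fit.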

Additional observations from a re-analysis of the deposited data

How the results depend on the processing

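Of 15 alternatives, Car9 was called in 15, Adm in 14 of 14, Eno2 in 12, Aldoc and Pdk1 in 11 and Vegfa in 5. Over all genes, 1126 were called; the count was 510 with normexp, 730 with quantile normalization, 271 with no background filter, 610 with probes above background on all 4 arrays and 310 to 1822 with 1 array left out. The share of calls that were higher was 56.7%, but 17.6% with scaling to the median, 31.9% with cyclic loess, 36.4% with quantile, 45.3% with normexp, 35.8% with no filter, 35.7% without 4T1-S replicate 1, 27.4% without 4T1-S replicate 2 and 68.4% with the replicate block. Members called higher numbered 1 with scaling to the median, 0 with no filter (36 tested, Car2 included), 1 with the mean of probes and 0 to 3 with 1 array left out; members called lower numbered 2 to 4 there. The replicate number as a block, with same-numbered arrays correlating at 0.42 in 2 pairs, too few to show pairing, gave 3686 genes, 4 members higher (Pfkp added), 5 lower (Hk1 and P4ha2 added) and 19 member probes. Member probes called were 7, then 3 with normexp and 2 to 16 with 1 array left out. The glycolytic median was -0.16 with scaling to the median and 0.11 to 0.25 with 1 array left out; that of other targets was -0.089 with normexp, -0.28 with scaling to the median, -0.088 with the mean of probes and -0.10 to 0.12 with 1 array left out. Signs turned without a call in either case. With scaling to the median, this held for Aldoa (-0.013), Bnip3l (-0.016), Egln1 (-0.16), Eno1 (-0.17), Gpi1 (-0.16), Ldha (-0.17), Ndrg1 (-0.23), Pfkfb3 (-0.21), Pgam1 (-0.15) and Pgk1 (-0.065). It held for Ndrg1 with normexp (-0.070) and Car12 with the mean of probes (-0.39). With 1 array left out, ranges were -0.33 to 0.26 (Bnip3), -0.011 to 0.26 (Egln1), -0.42 to 0.67 (Eno1), -0.50 to 8.78e-04 (Hif1a), -0.57 to 0.078 (Higd1a), -0.028 to 0.27 (Ldha), -0.27 to 0.39 (Ndrg1), -0.43 to 0.048 (P4ha1), -0.24 to 0.40 (Pfkfb3) and -0.57 to 0.16 (Pkm2). With a 4T1-S array left out, the lone array is assumed to vary like the 4T1-A pair. With a 4T1-A array left out, every tested member had the same SE of 0.32, or 0.37 for Tpi1 and Pgam1. Calls from those fits therefore do not weigh a gene's own spread. Calls of dim probes such as Adm rest on signal near background. The cause of each change was not tested.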
